A study of Mus musculus with 6 samples.

Results

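The phospholipase A2 family was examined as 10 named mouse genes, *Pla2g3*, *Pla2g2a*, *Pla2g5*, *Pla2g10*, *Pla2g12a*, *Pla2g4a*, *Pla2g4c*, *Pla2g6*, *Pla2g7* and *Pla2g15*, which were taken by symbol from a table of 18477 genes. Of these, 9 were matched and *Pla2g2a* was not analysed here. RNA was sequenced from the colon of male C57BL/6 mice aged 6 to 8 weeks, 3 of the DSS group (DSS 1 to 3) and 3 of the DSS+BV group (DSS+BV 1 to 3), with 1 library for each mouse. Both groups were gavaged daily for 14 days, the DSS group with PBS and the DSS+BV group with live *Bacteroides vulgatus*, a human gut commensal. In the last 7 of these days both drank 2% dextran sulfate sodium (DSS), a polymer that injures the colon lining and causes colitis. The gavage thus began before DSS and went on through it. Mice without DSS are not among these 6 libraries, so no value is set against uninjured colon. The question was whether the secreted and the cytosolic enzymes of the family were expressed differently when the bacterium was given. *Pla2g3* was chosen as the gene of interest because of its value in this same comparison, so its values are given as a description, without a test.

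Phospholipases A2 cut the middle fatty acid from membrane phospholipids and release a free fatty acid, often arachidonic acid, and a lysophospholipid. Arachidonic acid feeds the synthesis of prostaglandins and leukotrienes, while lysophospholipids are signals themselves or are re-acylated into the membrane. The secreted enzymes are small, depend on calcium and act outside the cell with a histidine and aspartate pair, whereas the cytosolic enzymes act on inner membranes with a serine. In the gut, such enzymes take part in fat digestion, defence against bacteria and inflammation.

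The stretch of coding sequence around the catalytic residue shows this division within the family. Each is 27 bases of the reference coding strand (GENCODE M21, build GRCm38), read in frame from 5′ to 3′. In the secreted members the capitals mark the histidine and aspartate codons.
Pla2g3: tgctgccgggaaCACGATcagtgccca
Pla2g5: tgctgtcagatgCACGACcgttgttat
Pla2g10: tgctgctaccacCACGACtgctgctac
Pla2g12a: tgctgcaaccagCACGACagatgctac
In the cytosolic members the capitals mark the codon of the catalytic serine.
Pla2g4a: ggtcttTCTggatccacatggtacatg
Pla2g4c: ggggtcTCTgggtccacttgggcactg

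The 4 secreted stretches lie at chr11:3489785-3489811 (plus strand, exon 2 of *Pla2g3*), chr4:138801431-138801457 (minus strand, exon 5 of *Pla2g5*), chr16:13725188-13725214 (minus strand, exon 3 of *Pla2g10*) and chr3:129890298-129890324 (plus strand, exon 3 of *Pla2g12a*). The cytosolic stretches each cross an exon junction, between exons 8 and 9 of *Pla2g4a* on chromosome 1 and between exons 3 and 4 of *Pla2g4c* on chromosome 7. All are coding sequence. *Pla2g3*, the mammalian relative of the bee venom enzyme, has the longest coding sequence of these secreted genes, at 1512 bp against 411 bp for *Pla2g5*, 453 bp for *Pla2g10* and 576 bp for *Pla2g12a*. *Pla2g2a* lies within the bounds of *Pla2g5* on chromosome 4 (chr4:138831857-138835189, GRCm38.p6), where RefSeq annotates it as a transcribed pseudogene. C57BL/6 mice are known to carry a natural disruption of this gene.

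The 6 libraries held between 15293263 and 17254329 counts. After genes with low counts had been removed, 14579 genes were tested with edgeR's quasi-likelihood test, and all 9 measured members were among them. Levels are given as CPM, counts per 1e+06 counts of a library total that TMM scaling had adjusted for differences in composition. Differences are log2 fold changes of DSS+BV over DSS. A gene was called at an adjusted p-value under 0.05 (Benjamini-Hochberg over all tested genes) with an absolute log2 fold change over 1. Mice of the same group differed far beyond counting noise (chi-square over its degrees of freedom, 43.7 to 125 for the pairs). DSS 1 correlated most closely with DSS+BV 1 (r = 0.967) and DSS 2 with DSS+BV 2 (r = 0.963) over log2 CPM across genes. The epithelium list (*Epcam*, *Cdh1*, *Vil1* and others) was present in every library, with all 15 genes above a log2 fold change of 0 and a median of 0.35. The macrophage and monocyte list had 13 of 14 genes below 0 (median -0.88), the fibroblast list 10 of 10 (median -0.82), and the neutrophil list 9 of 9, of which 5 were called lower.

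*Pla2g3* was the member whose level stood furthest apart, at 2.30 ± 0.707 CPM with DSS alone and 12.2 ± 2.50 CPM with the bacterium (SD, n = 3 each). The other secreted genes and both cytosolic genes overlapped between the groups, and so did *Pla2g6*, *Pla2g7* and *Pla2g15*, of which *Pla2g7* and *Pla2g15* had lower means in the DSS+BV mice. None of the 9 members was called by edgeR, against 0.0892% of all tested genes (13 genes, all lower, a split that did not hold without DSS+BV 1, where 4 genes were higher and 3 lower). At an unadjusted p-value under 0.05, 1 member was higher (*Pla2g3*) and 1 was lower (*Pla2g7*), beside 3.4% of all genes higher and 9.12% lower. DESeq2, the test the study used, called 1 member, *Pla2g3*, where it called 2.07% of 15808 genes, 0.291% as higher and 1.78% as lower. The groups did not overlap for 1 member, *Pla2g3*, which was higher in every DSS+BV mouse. Such a separation held for 17.6% of all tested genes, 6.37% in the higher and 11.3% in the lower direction. Since *Pla2g3* was chosen on this contrast, nothing is read from these counts for it. Of the 9 members, 5 had a log2 fold change above 0 and 4 below, with a median of 0.11, beside -0.01 over all tested genes. When libraries were scaled to the epithelium list instead, which moved the median of all genes by -0.41, 2 members lay above 0 and 7 below.

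**Figure D1:**
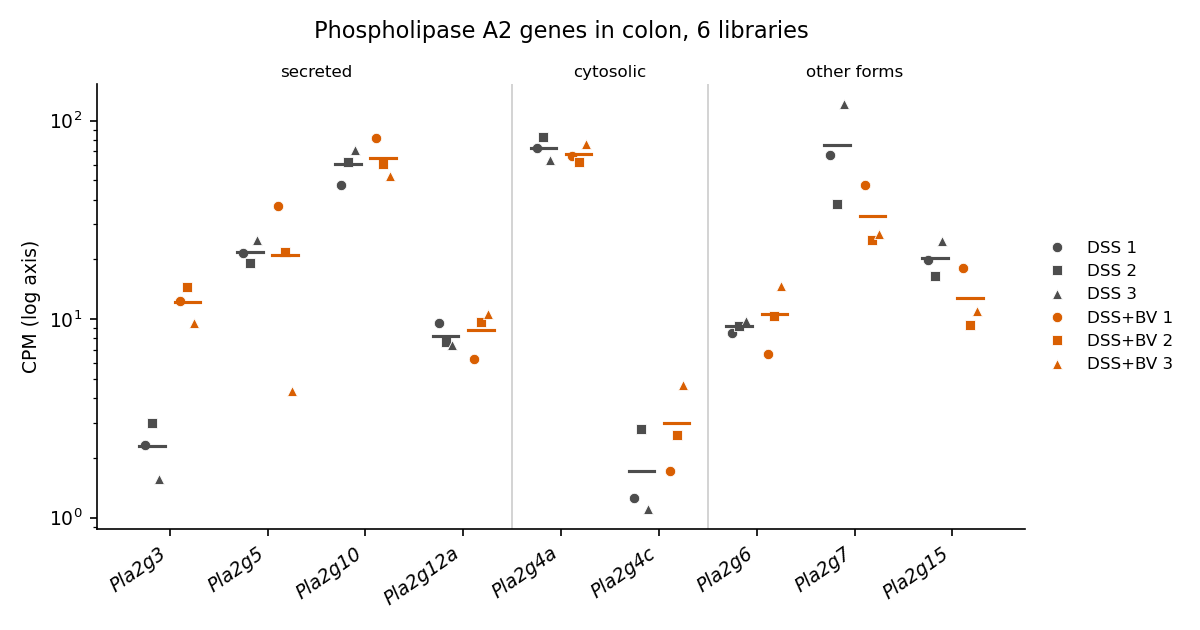
Level of each measured phospholipase A2 gene in the 6 libraries, in CPM on a log axis; points are single mice (grey, DSS; orange, DSS+BV; the shape gives the replicate) and bars are group means. *Pla2g3* is the gene whose groups do not overlap, while for *Pla2g5* the DSS+BV mice spread from 4.36 to 37.3 CPM.

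Of the secreted enzymes, *Pla2g3* (Entrez gene 237625, chr11:3488158-3499346, plus strand, GRCm38.p6) is known for its part in mast cell maturation and in sperm and lipoprotein metabolism. In the DSS mice, taken here and below in the order 1, 2, 3, its level was 2.34, 2.98 and 1.57 CPM, and in the DSS+BV mice it was 12.4, 14.5 and 9.55 CPM. The lowest DSS+BV mouse thus stood above the highest DSS mouse. These levels rested on 39, 48 and 27 counts in the DSS libraries and on 188, 228 and 151 counts in the DSS+BV libraries. The ratio of the group means was 5.29. The fitted log2 fold change was 2.40 (standard error 0.322). Among the 14579 tested genes it ranked 37th by log2 fold change in the higher direction. Leaving out each library in turn, the difference lay between 2.19 and 2.65.

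The 3′ end of *Pla2g3* overlaps *Inpp5j*, an inositol polyphosphate 5-phosphatase gene on the opposite strand. Exons of the protein-coding transcripts of both genes share 0 bases in GENCODE M21, and exons of all annotated transcripts share 401 bases. Whether the libraries kept strand is not given in the sources used here, so reads from shared bases may not have been told apart. *Inpp5j* was present at 42.0, 75.0 and 41.3 CPM in the DSS libraries and at 99.7, 127 and 121 CPM in the DSS+BV libraries. It was thus also higher in every DSS+BV mouse, by 1.14 ± 0.263 on the log2 scale (SE of the fit; edgeR adjusted p = 0.245). The *Pla2g3* count was 5.56%, 3.98% and 3.81% of the *Inpp5j* count in the DSS mice and 12.4%, 11.4% and 7.88% of it in the DSS+BV mice, so the ratio of the genes differed between the groups without overlap. All 6 *Pla2g3* values were whole numbers, as were those of *Inpp5j* and of every other measured member. Over all 18477 genes, 1573 held a value that was not whole. A whole value does not tell whether reads were assigned to the right gene. The share of *Pla2g3* reads that came from *Inpp5j* was not tested. *Pla2g6*, *Pla2g7* and *Pla2g10* overlap long non-coding RNA genes, *Pla2g4c* a pseudogene, and *Pla2g5* both kinds, *Pla2g2a* included, and the same limit holds there.

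In tissue RNA, fewer cells of a type and less RNA in each cell cannot be told apart. The summed level of the epithelium list was 14558 to 17110 CPM over the DSS mice and 18782 to 24205 CPM over the DSS+BV mice, without overlap. EdgeR and DESeq2 called 0 of its 15 genes, and 5 were higher at an unadjusted p-value under 0.05. Per 1000 CPM of that list, *Pla2g3* stood at 0.160, 0.178 and 0.0919 CPM in the DSS mice and at 0.574, 0.600 and 0.508 CPM in the DSS+BV mice. The ratio of group means on this scale was 3.91, and the groups remained apart. Against the absorptive colonocyte list, which summed to between 2596 and 5506 CPM in the DSS mice and between 4499 and 14312 CPM in the DSS+BV mice, the ratio was 2.60 and the groups overlapped. Most of that sum in DSS+BV 2 and 3 was 1 gene, *Car1*, at 10453 and 8702 CPM. *Car1* was at 924 CPM in DSS+BV 1 and at 825 to 1041 CPM in the DSS mice. Against the goblet cell list the ratio was 3.76, and against the tuft cell list it was 6.57, both without overlap. The part of epithelial content in the *Pla2g3* difference beyond these ratios was not tested.

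Per 1000 CPM of the mast cell list, the *Pla2g3* ratio of group means was 4.82, without overlap. The mast cell list itself overlapped between the groups. Its summed level was 47.2 to 133 CPM in the DSS mice and 69.1 to 103.5 CPM in the DSS+BV mice, most of it *Kit*, which other cells of the gut wall also express. Of its 10 genes in the table, 6 were tested, 2 of them above and 4 below 0 (median -0.49). EdgeR called none, 1 was lower at an unadjusted p-value under 0.05, and DESeq2 called 1, in both cases *Hdc*. The mast cell protease gene *Cpa3* lay between 0.253 and 2.49 CPM in all libraries, and *Cma1*, *Mcpt4* and *Ms4a2* were at 0 in DSS+BV 3. *Cma1* and *Ms4a2* were highest in DSS+BV 1, at 5.14 and 0.726 CPM. *Mcpt1*, another mast cell protease gene, lay between 5.53 and 17.2 CPM in the DSS mice. It lay between 2.47 and 13.5 CPM in the DSS+BV mice, with overlap. *Hdc*, the histamine-forming enzyme, was at 6.35, 6.28 and 9.67 CPM in the DSS mice and at 1.85, 1.27 and 0.948 CPM in the DSS+BV mice, lower in each of them (log2 fold change -2.45, edgeR adjusted p = 0.112). All 9 tested genes of the neutrophil list also lay below 0. The cell source of the *Hdc* difference was not tested.

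*Pla2g5* (Entrez gene 18784, chr4:138799247-138863562, minus strand) encodes the group V enzyme, which macrophages and other cells release. Its level was 21.4, 19.1 and 25.1 CPM in the DSS mice and 37.3, 21.8 and 4.36 CPM in the DSS+BV mice. The DSS+BV group held both the highest and the lowest value, with an 8.54-fold spread against 1.31-fold among the DSS mice. The log2 fold change was -0.05 (95% interval -1.61 to 1.50, edgeR adjusted p = 0.982), but it was 0.44 without DSS+BV 3 and 0.06 without DSS 3, so its sign rested on single mice.

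DSS+BV 3 was also low in other genes beside *Pla2g5*, which were picked after their values had been seen. *Pla2g5* lies in a group of 6 genes of the secreted class over 157 kb of chromosome 4, the pseudogene *Pla2g2a* included. The protein-coding genes *Ubxn10* and *Gm13030* also lie within that span. *Pla2g2f*, another gene of the group, was at 35.9, 37.8 and 44.8 CPM in the DSS mice and at 52.2, 18.5 and 8.47 CPM in the DSS+BV mice, lowest in DSS+BV 3. *Pla2g4f*, a cytosolic gene on chromosome 2, was at 2.02 CPM in DSS+BV 3, while the other libraries lay between 12.3 and 72.2 CPM. *Hoxb13*, a homeobox gene expressed in the distal colon, was at 211, 36.4 and 125 CPM in the DSS mice, while the DSS+BV mice had 248, 112 and 0 CPM. *Hoxd13*, another marker of the distal end, was at 0.0632 CPM in DSS+BV 3 and at 1.06 CPM in DSS 2, where *Pla2g5* was not low. The distal colon list of 7 measured genes had 5 below 0 and 2 above, with a summed level of 1149 to 1494 CPM in the DSS mice and 605 to 1523 CPM in the DSS+BV mice. The labels give the tissue as colon, without the segment, and the part of the sampled position in the *Pla2g5* values was not tested.

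**Figure D2:**
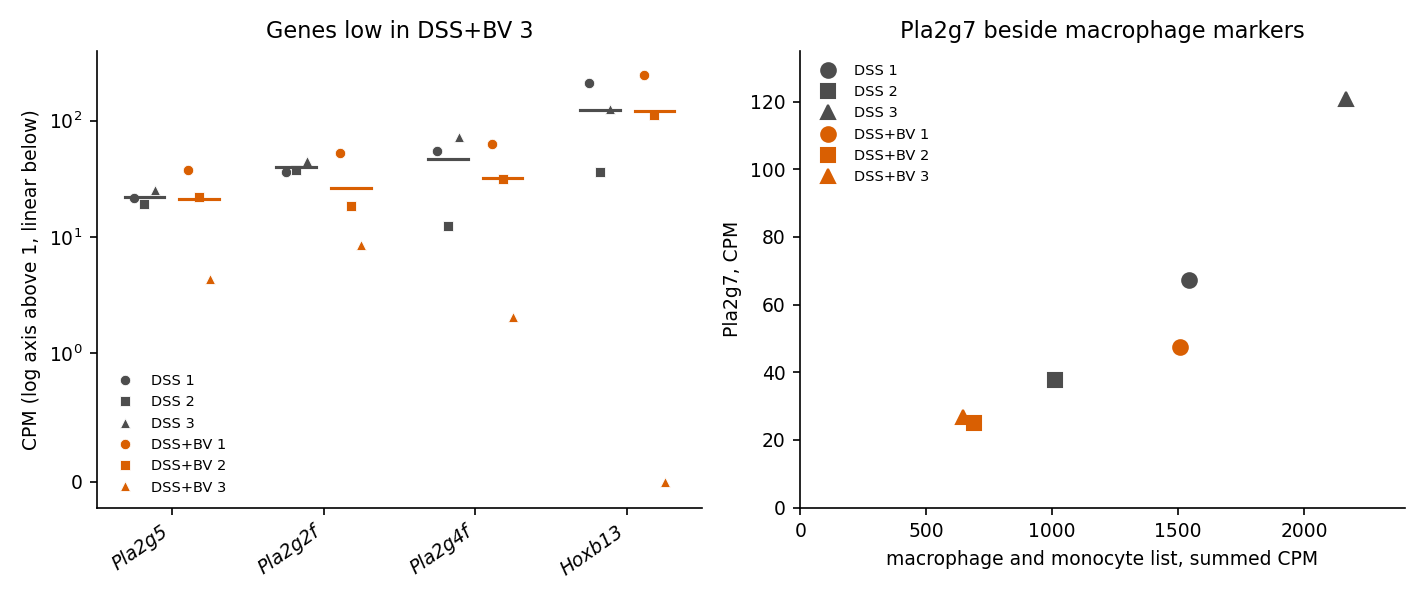
Left, levels of *Pla2g5*, *Pla2g2f*, *Pla2g4f* and *Hoxb13* in CPM (log axis above 1, linear below), in which the triangle of DSS+BV 3 is the lowest point for each gene. Right, *Pla2g7* in CPM against the summed CPM of the macrophage and monocyte list, 1 point a mouse, with DSS 3 at the upper right and DSS+BV 2 and 3 at the lower left.

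*Pla2g10* (Entrez gene 26565, chr16:13715057-13731094, minus strand) encodes the group X enzyme, which acts well on phosphatidylcholine and is abundant in the colon lining. It was measured at 47.4, 61.6 and 71.4 CPM in the DSS mice and at 81.3, 60.4 and 52.8 CPM in the DSS+BV mice, so the groups overlapped. Its log2 fold change was 0.11 (95% interval -0.42 to 0.63, edgeR adjusted p = 0.867) and -0.29 with the epithelium scaling. *Pla2g12a* (Entrez gene 66350, chr3:129878606-129895825, plus strand), a more distant group XIIA enzyme with weak activity, was at 9.58, 7.65 and 7.40 CPM in the DSS mice and at 6.27, 9.62 and 10.6 CPM in the DSS+BV mice. The DSS+BV values lay on both sides of the DSS values. The log2 fold change was 0.11 (95% interval -0.53 to 0.75, edgeR adjusted p = 0.894), with -0.30 under the epithelium scaling.

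Of the cytosolic enzymes, *Pla2g4a* (Entrez gene 18783, chr1:149829618-149961290, minus strand) encodes the group IVA form, which prefers arachidonic acid and moves to membranes when calcium rises. The level was 72.5, 82.6 and 63.0 CPM in the DSS mice and 66.4, 61.5 and 75.8 CPM in the DSS+BV mice. It varied least of the members among the DSS+BV mice, with a coefficient of variation of 10.7%, and the groups overlapped. The log2 fold change was -0.10 (95% interval -0.46 to 0.26, edgeR adjusted p = 0.812), an interval narrower than 1 log2 unit. *Pla2g4c* (Entrez gene 232889, chr7:13311507-13360674, plus strand), the group IVC form that works without calcium, was scarce, at 1.26, 2.80 and 1.11 CPM in the DSS mice and 1.71, 2.61 and 4.68 CPM in the DSS+BV mice. These levels came from 21, 45 and 19 counts and from 26, 41 and 74 counts. DSS 2 exceeded DSS+BV 1 and 2, and the log2 fold change of 0.80 had a 95% interval from -0.47 to 2.08 (edgeR adjusted p = 0.568). It was 0.34 without DSS+BV 3 and 1.35 without DSS 2.

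The remaining members fall outside both classes. *Pla2g6* (Entrez gene 53357, chr15:79286228-79328385, minus strand) encodes the calcium-independent group VI enzyme of membrane turnover. It was measured at 8.50, 9.26 and 9.78 CPM in the DSS mice and at 6.66, 10.4 and 14.6 CPM in the DSS+BV mice, where the spread was 2.19-fold against 1.15-fold. The log2 fold change was 0.20 (95% interval -0.53 to 0.93, edgeR adjusted p = 0.812), and -0.17 with the epithelium scaling.

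*Pla2g7* (Entrez gene 27226, chr17:43567994-43612202, plus strand) encodes the plasma enzyme that breaks down platelet-activating factor and oxidised phospholipids, and macrophages are a main source of it. The *Pla2g7* level was 67.2, 37.9 and 120.7 CPM in the DSS mice and 47.4, 25.0 and 26.9 CPM in the DSS+BV mice. DSS+BV 1 lay above DSS 2, so the groups overlapped. The log2 fold change of -1.18 was the lowest of the family, with a 95% interval from -2.27 to -0.10, and it did not pass the adjustment (edgeR adjusted p = 0.383). Leaving out single libraries gave -1.53 to -0.67, and the value nearest 0 came without DSS 3 (edgeR adjusted p = 0.819). Without DSS 2 and DSS+BV 1 together, it was -1.84 and was called (edgeR adjusted p = 0.0466). That fit called 615 of all genes, against 13 with all libraries. For *Pla2g7*, DSS 2 was the lowest DSS mouse and DSS+BV 1 the highest DSS+BV mouse. Leaving them out therefore had to widen the difference, and nothing is read from this call.

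*Pla2g15* (Entrez gene 192654, chr8:106150354-106164718, plus strand) encodes the lysosomal enzyme that degrades phospholipids in acid compartments, and alveolar macrophages are rich in it. The *Pla2g15* level was 19.9, 16.5 and 24.6 CPM in the DSS mice and 18.0, 9.30 and 10.9 CPM in the DSS+BV mice. DSS+BV 1 again lay within the DSS range, while DSS+BV 2 and 3 lay below it. The log2 fold change was -0.67 (95% interval -1.39 to 0.04, edgeR adjusted p = 0.420).

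Both genes are read beside the macrophage and monocyte list. EdgeR called 0 of its 14 genes, 2 were lower at an unadjusted p-value under 0.05, and DESeq2 called 2 as lower. Its summed level was 1545, 1009 and 2167 CPM for the DSS mice and 1508, 691 and 648 CPM for the DSS+BV mice. The order of mice within the DSS group was that of *Pla2g7* and *Pla2g15*. The neutrophil, B and plasma cell and distal colon lists had this order too, so it was not particular to macrophages. Within the DSS+BV group the orders differed, as the list was lowest in DSS+BV 3 and both genes in DSS+BV 2. None of the 14 macrophage and monocyte genes was at 0 in any library. *Csf1r*, the receptor that macrophages need for survival, lay between 76.8 and 159.6 CPM in the DSS mice and between 43.6 and 103.9 CPM in the DSS+BV mice. Per 1000 CPM of the list, *Pla2g7* stood at 43.5, 37.5 and 55.7 CPM in the DSS mice and at 31.4, 36.3 and 41.5 CPM in the DSS+BV mice. The ratio of group means was 0.799 on this scale, against 0.440 in CPM, and the groups overlapped. *Pla2g15* on the same scale gave a ratio of 1.04, against 0.626 in CPM. Such ratios were not particular to this list. Per fibroblast list the ratio was 0.990 for *Pla2g7* and 1.40 for *Pla2g15*, and per B and plasma cell list it was 0.764 and 0.983. The part of any of these cell types in the differences was not tested.

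**Figure D3:**
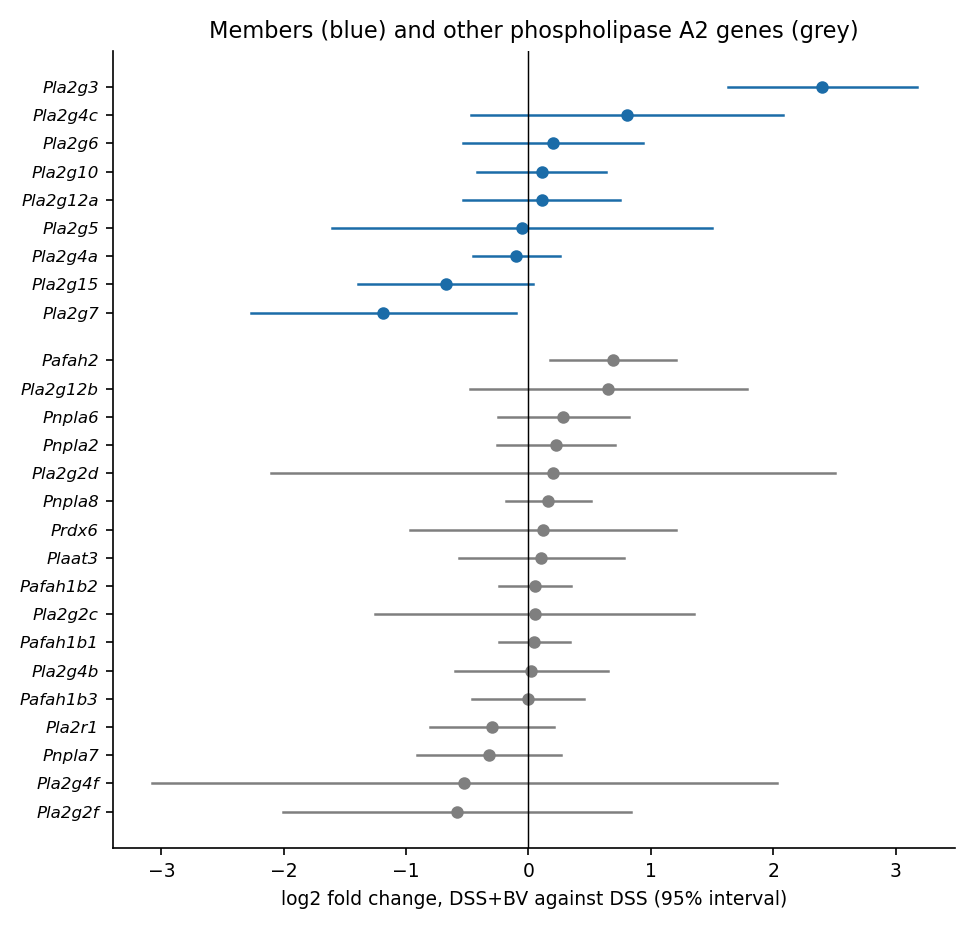
Log2 fold change of DSS+BV over DSS with its 95% interval from the edgeR fit for the 9 measured members (blue) and for 17 other tested phospholipase A2 genes (grey), each ordered by size. The interval of *Pla2g3* is a description, since the gene was chosen on this contrast; of the other intervals, those of *Pla2g7* and *Pafah2* leave out 0.

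To compare levels between genes, CPM was divided by the length of the coding sequence in kb. On this scale *Pla2g10* was highest in every library, at 132.8 ± 26.6 CPM per kb over the DSS mice and 143 ± 32.5 CPM per kb over the DSS+BV mice (SD, n = 3 each). In the DSS group it was followed by *Pla2g7* (57.0 ± 31.8) and *Pla2g5* (53.3 ± 7.30), whose ranges overlapped, and then by *Pla2g4a* (32.4 ± 4.36 CPM per kb). *Pla2g15* (16.5 ± 3.29) and *Pla2g12a* (14.2 ± 2.08) also overlapped, *Pla2g6* followed at 3.79 ± 0.266 CPM per kb, and *Pla2g3* (1.52 ± 0.467) and *Pla2g4c* (0.945 ± 0.514) came last with ranges that overlapped. *Pla2g3* was thus the eighth of 9 members in each DSS mouse.

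In the DSS+BV group the order below *Pla2g10* was *Pla2g5* (51.4 ± 40.1 CPM per kb), *Pla2g4a* (30.3 ± 3.23) and *Pla2g7* (25.1 ± 9.42), and each overlapped the next. *Pla2g12a* (15.3 ± 3.96 CPM per kb), *Pla2g15* (10.3 ± 3.74) and *Pla2g3* (8.04 ± 1.65) formed a second run of overlapping ranges. *Pla2g6*, at 4.36 ± 1.64 CPM per kb, and *Pla2g4c*, at 1.65 ± 0.835 CPM per kb, were lowest and did not overlap their neighbours above. *Pla2g3* stood below *Pla2g6* in each DSS mouse and above it in each DSS+BV mouse, where it was the sixth or the seventh of 9.

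The secreted sum over *Pla2g3*, *Pla2g5*, *Pla2g10* and *Pla2g12a* came to 202 ± 29.0 CPM per kb under DSS and 218 ± 68.8 CPM per kb under DSS+BV. The cytosolic sum over *Pla2g4a* and *Pla2g4c* was 33.3 ± 4.83 and 31.9 ± 3.94 CPM per kb (SD, n = 3 each). The ratio of secreted to cytosolic was 5.30, 5.16 and 8.11 for the DSS mice and 9.48, 7.37 and 4.18 for the DSS+BV mice. The DSS+BV mice thus held the highest and the lowest ratio. The difference of the mean log2 ratios, 0.13, was smaller than the SD within either group, at 0.37 and 0.61. With 3 mice in each group, this cannot show that the balance of the classes was the same. The ratio contains *Pla2g3*, and it was not tested.

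The share of each gene in the secreted sum was also taken, where that of *Pla2g3* follows from the contrast on which it was chosen. *Pla2g3* gave 0.882%, 0.998% and 0.447% of the secreted sum in the DSS mice and 2.84%, 4.52% and 4.16% in the DSS+BV mice, a mean of 0.776 ± 0.290% against 3.84 ± 0.885%. Even in the DSS+BV mice it was the smallest of the 4 secreted genes in each library. *Pla2g10* made up 59.8% to 76.7% of the sum in every mouse, and *Pla2g5* 23.5% to 31.4% in every mouse but DSS+BV 3, where it was 6.99%. The secreted sum without *Pla2g3* was 200.3 ± 29.3 CPM per kb under DSS and 209.9 ± 67.9 CPM per kb under DSS+BV.

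**Figure D4:**
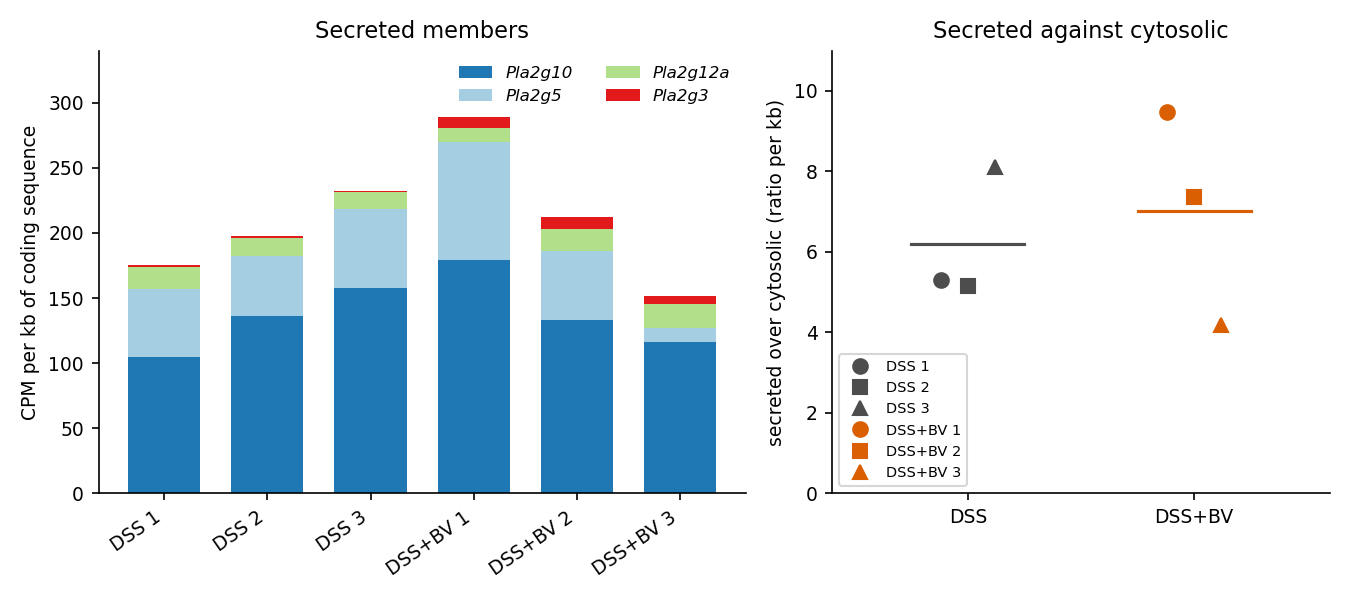
Left, stacked levels of the 4 measured secreted genes in each library in CPM per kb of coding sequence, with *Pla2g3* as the thin top layer. Right, the ratio of the secreted to the cytosolic sum in each mouse with group means, where the DSS+BV mice run from 4.18 to 9.48 and enclose the DSS mice.

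The pattern of *Pla2g3* over the 6 libraries was compared with that of every tested gene by the root mean square difference of log2 CPM, each gene centred on its own mean. The nearest was *Gsdmc3*, a gasdermin gene of the epithelium, at 0.426 log2 units. It stood at 38.6, 109.2 and 48.7 CPM in the DSS mice and at 256, 265 and 160 CPM in the DSS+BV mice, but the gene has near-identical copies beside it and its counts are uncertain. *Fosl1*, a subunit of the AP-1 transcription factor, followed at 0.520, and the bicarbonate transporter gene *Slc4a4* at 0.525. *Gm29758* and *LOC115488023*, at 0.566 and 0.575, completed the first 5. Their log2 fold changes lay between 1.37 and 1.80, all smaller than that of *Pla2g3*.

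**Figure D5:**
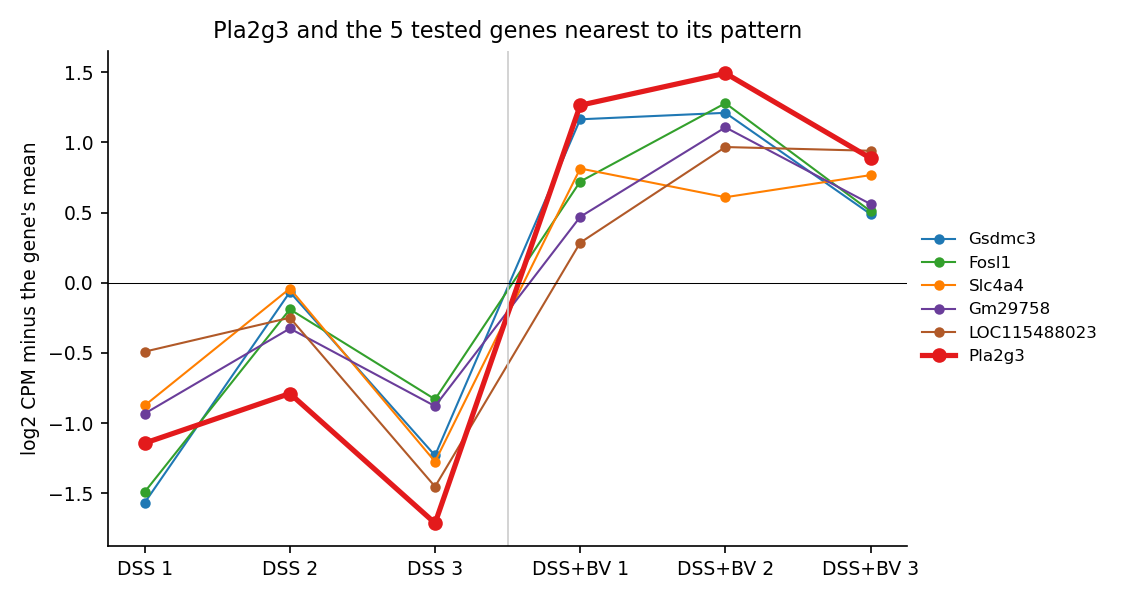
Log2 CPM of *Pla2g3* (thick red line) and the 5 tested genes nearest to its pattern, each minus the gene's mean over the 6 libraries, with the grey line parting DSS from DSS+BV. All 6 genes lie below their mean in the 3 DSS mice and above it in the 3 DSS+BV mice; the genes were chosen for this likeness.

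No other member came near *Pla2g3* by the same measure, the closest being *Pla2g4c* at 0.989 log2 units. Within the family the most alike pair was *Pla2g12a* and *Pla2g6*, at 0.211, which both were lowest in DSS+BV 1 and highest in DSS+BV 3. *Pla2g7* and *Pla2g15* differed by 0.371, with their highest value in DSS 3 and their lowest in DSS+BV 2. The least alike pair was *Pla2g3* and *Pla2g7*, at 1.91. These distances describe 6 libraries that share their scaling, and they carry no test.

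Of 23 other phospholipase A2 and related genes in the table, 17 were tested. EdgeR and DESeq2 called none of them, and 1 was higher at an unadjusted p-value under 0.05. Of the 17, 12 lay above a log2 fold change of 0 and 5 below, with a median of 0.06. *Pafah2*, an intracellular relative of the *Pla2g7* enzyme, had the smallest p-value of the list. It was measured at 56.9, 59.1 and 35.5 CPM in the DSS mice and at 72.9, 86.4 and 85.0 CPM in the DSS+BV mice, without overlap (log2 fold change 0.69, standard error 0.214, edgeR adjusted p = 0.329). *Pla2r1*, the receptor that binds and clears secreted enzymes, came next, at 12.5, 12.6 and 16.7 CPM against 13.1, 10.7 and 10.2 CPM (log2 fold change -0.30, edgeR adjusted p = 0.596). *Pla2g1b*, the pancreatic digestive enzyme, had 0 counts in all 6 libraries, against a floor of 3 counts in each. The other measured genes of the chromosome 4 group were low apart from *Pla2g2f*, with *Pla2g2d* between 0.560 and 8.24 CPM, *Pla2g2c* between 1.31 and 3.55 CPM and *Pla2g2e* at no more than 6 counts.

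Downstream of the family, lysophospholipids are re-acylated or broken down. Of 15 tested lysophospholipid acyltransferase genes, 11 lay above 0 and 4 below (median 0.23), and 4 were higher and 1 lower without overlap, where 6.37% and 11.3% of all tested genes were. EdgeR and DESeq2 called 0, and 2 were higher at an unadjusted p-value under 0.05. *Lpcat3*, which returns polyunsaturated fatty acids to phosphatidylcholine, was measured at 72.1, 89.2 and 76.5 CPM in the DSS mice and at 102.6, 123 and 109.7 CPM in the DSS+BV mice. Its log2 fold change was 0.50 (edgeR adjusted p = 0.313), and every DSS+BV mouse was higher. *Mboat1*, a related enzyme, stood at 258, 251 and 243 CPM against 375, 458 and 308 CPM, with a log2 fold change of 0.60 (edgeR adjusted p = 0.321). The part of the epithelium list, whose levels are given above, was not tested.

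Of 23 genes of lysophospholipid breakdown and lysophosphatidic acid signalling, 13 lay above 0 and 10 below (median 0.15). EdgeR called 0, while 1 was lower at an unadjusted p-value under 0.05 and was called by DESeq2. That gene was *Pnliprp2*, a lipase with galactolipase and phospholipase activity. It was found at 6.95, 6.34 and 49.6 CPM in the DSS mice and at 0.792, 2.80 and 3.22 CPM in the DSS+BV mice. The DSS mean rested largely on DSS 3, and the log2 fold change of -3.20 did not pass the adjustment (edgeR adjusted p = 0.329). *Lypla1*, a thioesterase first described as a lysophospholipase, had a log2 fold change of 0.32 with overlapping groups (edgeR adjusted p = 0.434).

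Of 21 tested genes that make or use arachidonic acid or act on its products, 11 lay above 0 and 10 below (median 0.07). EdgeR called 0, with 4 higher and 2 lower at an unadjusted p-value under 0.05, and DESeq2 called 1, *Ptges*, as lower. *Ptges*, the inducible prostaglandin E2 synthase, was measured at 28.0, 29.8 and 50.4 CPM in the DSS mice and at 18.7, 13.8 and 13.2 CPM in the DSS+BV mice, lower in each of the latter. Its log2 fold change was -1.25 (standard error 0.282, edgeR adjusted p = 0.239). *Lta4h*, which makes leukotriene B4, stood at 95.6, 86.0 and 71.0 CPM against 117, 121 and 116 CPM, higher in each DSS+BV mouse (log2 fold change 0.49, edgeR adjusted p = 0.320). *Alox5* and *Alox5ap*, also of leukotriene synthesis and named here only beside *Lta4h*, were lower in each DSS+BV mouse. Their log2 fold changes were -0.37 (edgeR adjusted p = 0.561) and -1.26 (edgeR adjusted p = 0.367). Without overlap, 2 of the 21 were higher and 3 lower, close to the shares of all tested genes, 6.37% and 11.3%.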

How the data were processed

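RNA libraries of 6 mouse colons were sequenced on a DNBSEQ-T7 instrument. The authors deposited expected counts per gene from RSEM 1.2.8, unscaled. The submitters' processing notes also name HISAT2 2.1.0, Bowtie2 2.2.5 and build GRCm38.p6. The library kit's strand setting is not given in the sources used here.

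Counts were rounded, filtered with filterByExpr (minimum count 10, minimum total 15), TMM-scaled and fitted with edgeR 4.0.16 (R 4.3.3). Its quasi-likelihood p-values were adjusted by Benjamini-Hochberg across 14579 genes (common biological coefficient of variation 32.1%). The study's thresholds were kept, and its DESeq2 test was run as an alternative (DESeq2 1.42.0). The edgeR script was tested on simulated data. Coding lengths and sequences came from GENCODE M21, coordinates and biotypes from RefSeq. With 3 mice against 3, the smallest two-sided p of an exact permutation test is 0.1, so none was run on single values. P-values set a group difference against the spread between these mice, which is estimated with information shared across genes.

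The members, gene lists and class ratio were chosen with earlier results of these data known. Named genes were all members, the 2 genes with the smallest p-value in each pathway list, the 5 genes nearest to *Pla2g3* and defining markers; others are marked where named. Alternatives changed scaling, filter, test, threshold, replicate block, class membership and the libraries used.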

Additional observations from a re-analysis of the deposited data

How the results depend on the processing

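The *Pla2g3* difference lay between 1.97 and 2.65 in the 15 alternatives. The gene was chosen on this contrast and its groups do not overlap, so nothing is read from its kept direction. The number of members called was 0 in 13 of 16 alternatives. It was 1 (*Pla2g3*) with DESeq2 and with libraries scaled to the epithelium list, and 2 (*Pla2g3* and *Pla2g7*) without DSS 2 and DSS+BV 1. Over all genes, 13 were called. DESeq2 called 327 (46 higher, 281 lower), the epithelium scaling 230 (1 higher, 229 lower), the fit without DSS 2 and DSS+BV 1 615 (282 higher, 333 lower), and the fits that left out 1 library between 0 and 7; without DSS 1, DSS 3, DSS+BV 2 or DSS+BV 3 it was 0, without DSS 2 it was 1 and without DSS+BV 1 it was 7 (4 higher, 3 lower). The cause of these shifts was not tested. The replicate number as a block gave 0 genes, 0 members and a *Pla2g3* difference of 2.42. DSS 1 and 2 were most like their same-numbered DSS+BV mice in log2 CPM. Deviations from the group means gave r = 0.267, 0.255 and -0.30 for the 3 numbers. By these, no 2 mice of the same number were each the closest to the other across the groups. The number was taken only as a name.

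Several members near 0 changed sign. *Pla2g10* gave -0.29 with the epithelium scaling, -0.04 without DSS 1, -0.078 without DSS+BV 1 and -0.05 without DSS 2 and DSS+BV 1. *Pla2g12a* gave -0.30 with the epithelium scaling and -0.043 without DSS+BV 3, and *Pla2g6* gave -0.17 and -0.10. *Pla2g4a* gave 0.02 without DSS 2 and 0.046 without DSS 2 and DSS+BV 1. *Pla2g5* gave 0.06 without DSS 3 and 0.44 without DSS+BV 3. Without DSS 2 and DSS+BV 1, *Pla2g5* gave -0.81 and *Pla2g6* 0.47. The secreted to cytosolic log2 ratio, 0.13, became -0.13 without DSS+BV 1, -0.24 without DSS 2 and DSS+BV 1, and -0.058 with *Pla2g7* counted as secreted. Scaling and filters cancel in this ratio, which 5 alternatives therefore could not change, and it kept its sign in 7 of the other 10. Leaving out 1 library gave *Pla2g10* a range of -0.08 to 0.25, *Pla2g12a* -0.04 to 0.32, *Pla2g4a* -0.19 to 0.02, *Pla2g5* -0.73 to 0.44, *Pla2g6* -0.10 to 0.45, *Pla2g4c* 0.34 to 1.35, *Pla2g7* -1.53 to -0.67, *Pla2g15* -0.997 to -0.49 and the ratio a range of -0.13 to 0.46. At these counts, *Pla2g4c* had the widest relative counting error of the family, and its interval allowed differences of either sign.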
